A study of Mus musculus with 35 samples.

Results

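Rod phototransduction turns the capture of a photon into a change of membrane current. The activated visual pigment switches on the G protein transducin, transducin relieves the inhibition of a cyclic GMP phosphodiesterase, and the fall in cyclic GMP closes a cation channel in the outer segment. Arrestin and recoverin act on the shut-off arm of the cascade. In the mouse, rods are the most abundant retinal cells, are still being born around birth and mature over the following weeks. The genes described here were taken as a named list of 9: Gnat1 and Gngt1 (the alpha and gamma subunits of rod transducin), Pde6a, Pde6b and Pde6g (the catalytic alpha and beta subunits and an inhibitory gamma subunit of the phosphodiesterase), Cnga1 and Cngb1 (the subunits of the rod channel), Sag (rod arrestin) and Rcvrn (recoverin). A start was placed for all 9, among 17479 coding genes in all.

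Whole mouse retinae were profiled by ChIP-seq. H3K27Ac, an acetylation found at active promoters and enhancers, was profiled in retinae of wild-type mice on postnatal day (P) 0, P14 and P21 (2 libraries each), in wild-type P12 retinae (1 library) and in Brg1-deficient P12 retinae (2 libraries). H3K4me3, a mark of promoters, was profiled with 2 wild-type libraries per stage on P0, P14 and P21 and in 1 wild-type and 1 Brg1-deficient library at P12, and Brg1 in 1 library of P0 retinae from knock-in mice with a FLAG tag on the endogenous Brg1. H3K27me3, a mark of repressed chromatin, was measured in 2 wild-type libraries at each of P0, P12, P14 and P21 and in 1 Brg1-deficient library at P12. Brg1 is the ATPase of a chromatin remodelling complex. The Brg1-deficient retinae carried the Chx10-Cre transgene and Brg1 Lox/Lox alleles. Chx10-Cre is active in retinal progenitor cells in a mosaic, so these retinae keep cells with Brg1, and the libraries hold no measure of how many. The labels number the replicates and do not tie them to animals, so p-values measure the spread between these libraries.

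The values are heights, the fold enrichment that the authors' peak caller gave each listed peak. The height of a gene in a library is that of its highest peak within 2 kb of the start, and 0 where no peak was listed there. The number of reads is unknown. The H3K27Ac lists differed in size: 30.2% and 35.4% of the 17479 starts had a peak in P21 replicate 1 and P14 replicate 1, against 46.5% to 55.0% in the other 7 libraries. The H3K4me3 lists covered 55.7% to 58.7% of starts. Of other retinal cell types, marker starts were few (2 to 5 per list). Progenitor markers had H3K27Ac at 4 of 5 starts in both P0 libraries and at 1 to 3 in the P14 and P21 libraries, with summed scaled heights of 31.4 and 36.2 against 5.55 to 19.4. Amacrine markers had it at 5 and 4 of 5 starts at P0 and at 1 to 5 later (summed 36.3 and 24.5 against 15.6 to 23.99), Muller glia markers at 2 of 4 at P0 and at 1 to 2 later (23.7 and 19.9 against 9.15 to 13.7) and bipolar markers at 1 of 5 at P0 and at 1 to 3 later (8.82 and 6.66 against 12.6 to 15.8). Ganglion cell markers had it at 0 and 1 of 2 starts at P0 and at 0 to 1 later, and pigment epithelium markers at 0 of 2 in all of these libraries. The limma fits described below called some of these starts lower than at P0: Top2a of the progenitor list for H3K27Ac at P21 (adjusted p 0.0408), Sfrp2 of the same list for H3K4me3 at P21 (0.0416), Apoe of the Muller glia list for H3K4me3 at P14 (0.0251) and Tfap2b of the amacrine list for H3K4me3 at P14 (0.0424) and P21 (0.00700). Their part in the results on the rod genes was not tested.

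H3K27Ac was gained after birth at 8 of the 9 starts, as described below. Of these 8 genes, Pde6b, Cnga1, Sag and Gngt1 had a RefSeq promoter entry, and their promoters are shown. Each line gives the 250 bases before the start on the coding strand, 5′ to 3′, from RefSeq on GRCm38.p6. Capitals mark TAATCC, a core bound by the photoreceptor homeodomain factor Crx and its relatives, or TGCTGA, a core bound by Maf-type factors such as Nrl, on either strand (GGATTA and TCAGCA are the reverse complements).
Pde6b (chr5:108388123-108388372, plus strand): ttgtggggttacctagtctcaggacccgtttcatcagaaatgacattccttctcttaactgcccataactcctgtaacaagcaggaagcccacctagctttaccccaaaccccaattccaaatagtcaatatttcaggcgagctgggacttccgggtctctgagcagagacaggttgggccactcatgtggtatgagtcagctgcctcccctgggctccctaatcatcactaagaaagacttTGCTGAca
Cnga1 (chr5:72642753-72643002, minus strand): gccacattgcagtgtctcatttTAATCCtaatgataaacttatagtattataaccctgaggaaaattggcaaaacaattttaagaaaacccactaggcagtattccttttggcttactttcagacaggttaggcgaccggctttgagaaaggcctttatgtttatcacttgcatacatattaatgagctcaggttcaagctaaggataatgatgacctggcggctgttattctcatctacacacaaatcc
Sag (chr1:87803430-87803679, plus strand): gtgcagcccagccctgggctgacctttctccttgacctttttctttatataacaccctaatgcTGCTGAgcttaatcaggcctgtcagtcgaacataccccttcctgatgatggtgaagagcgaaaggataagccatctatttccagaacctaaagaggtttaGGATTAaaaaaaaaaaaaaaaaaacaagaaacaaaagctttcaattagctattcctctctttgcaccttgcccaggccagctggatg
Gngt1 (chr6:3993758-3994007, plus strand): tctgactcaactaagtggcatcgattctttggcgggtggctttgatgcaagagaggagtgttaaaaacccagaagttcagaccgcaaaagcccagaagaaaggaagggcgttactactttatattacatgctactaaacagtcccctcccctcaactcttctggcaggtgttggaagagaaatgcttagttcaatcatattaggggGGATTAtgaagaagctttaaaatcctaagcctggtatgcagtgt
TAATCC was found once each in Cnga1, Sag and Gngt1, and TGCTGA once each in Pde6b and Sag. Of 21245 RefSeq promoter windows of the same length, 5.82% held TAATCC, 14.9% held TGCTGA and 0.894% held both. Cngb1, whose promoter is in the same table, held TAATCC at 2 places and no TGCTGA. A match is a run of letters and not a measured binding site, and the promoters of Gnat1, Pde6a, Pde6g and Rcvrn were not analysed here for motifs.

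H3K27Ac was absent from the starts of all 9 genes at P0 and present at 8 of them in each of the 7 later libraries. No peak was listed within 2 kb of any of the 9 starts in either P0 library, and a peak was listed in all 4 wild-type P14 and P21 libraries at every start but that of Cngb1. Of all 17479 starts, 46.9% had no H3K27Ac peak at P0, and 0.578% (101 starts) had none at P0 and one in all 4 later libraries. In whole retina, a mark carried by more cells and a mark that is stronger in each cell cannot be told apart.

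Among the transducin genes, Gnat1 was at 10.7 and 12.4 in the P14 libraries, at 17.7 and 13.5 in the P21 libraries and at 19.0 in the wild-type P12 library. Gngt1 was at 8.87 and 8.82 at P14, at 12.9 and 10.1 at P21 and at 7.23 at P12. Gngt1 lay below Gnat1 in each of these 5 libraries.

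Of the phosphodiesterase genes, Pde6g was the highest at P14 and P21 in all but 1 library. Pde6g was at 28.5 and 20.8 at P14, at 30.2 and 17.5 at P21 and at 17.1 at P12. Pde6a was at 16.1 and 16.2 at P14, at 12.1 and 17.8 at P21 and at 15.1 at P12. Pde6b was at 9.68 and 17.0 at P14, at 17.6 and 15.8 at P21 and at 16.8 at P12. The ranges of Pde6a and Pde6b overlapped at both stages.

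The channel subunits parted. Cnga1 was at 11.7 and 11.8 at P14, at 15.2 and 8.03 at P21 and at 9.80 at P12. Cngb1 had no peak within 2 kb of its start in any of the 18 lists of H3K27Ac, H3K4me3 and Brg1.

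Of the shut-off genes, Sag was at 26.1 and 20.3 at P14, at 24.1 and 21.8 at P21 and at 17.6 at P12. Rcvrn was at 13.9 and 28.5 at P14, at 16.7 and 13.6 at P21 and at 12.9 at P12. As deposited, the P14 libraries of Rcvrn differed by more than those of any other of the 8 genes. With the scaling between libraries used for the tests below, Rcvrn was at 19.2 and 18.3 at P14. Its SD of 0.635 was then the smallest of the 8.

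**Figure D1:**
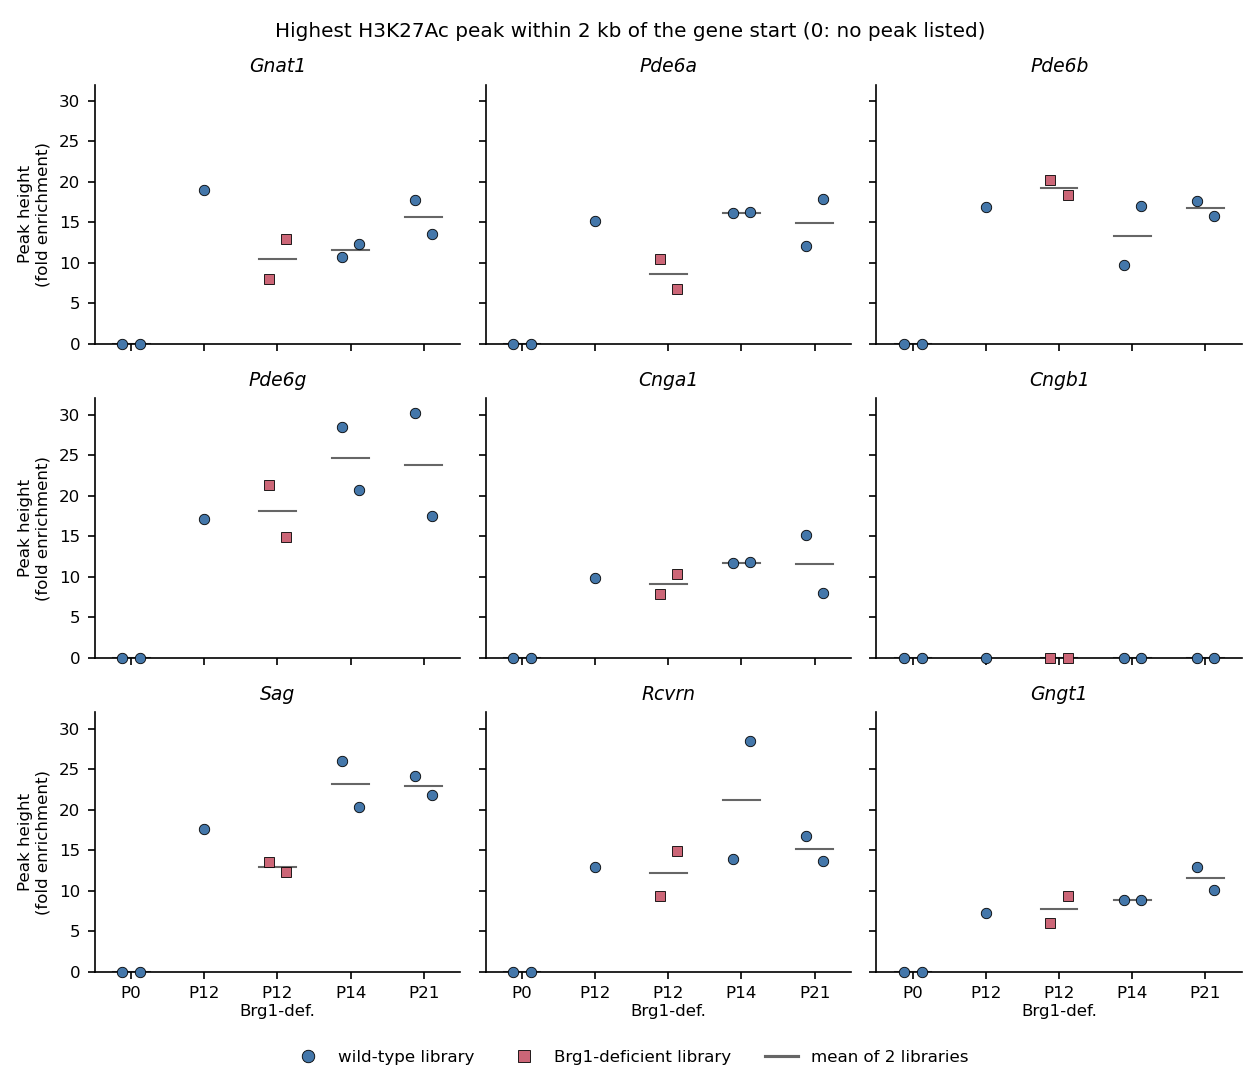
Height of the highest H3K27Ac peak within 2 kb of the start (fold enrichment, linear axis) for each of the 9 genes, by stage and genotype. Each point is 1 library, circles are wild-type, squares are Brg1-deficient and bars are means of 2 libraries. All P0 points lie at 0, 8 genes lie between 6.06 and 30.2 at later stages, and Cngb1 lies at 0 throughout.

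For tests, heights were scaled between libraries on the median of the promoters with a peak in every library, and log2(scaled height + pseudocount) was fitted with limma over all 9 H3K27Ac libraries. Cngb1 had no peak and was not tested. The other 8 genes passed the filter (a peak in at least 2 libraries) only through the later stages. At P14 against P0, 5 of the 8 (Sag, Rcvrn, Pde6g, Pde6a and Pde6b) were called higher, against 0.432% of the 9722 promoters tested. Benjamini-Hochberg adjusted p from limma was 0.0192 for Sag and Rcvrn and 0.0204 for Pde6g, Pde6a and Pde6b. It was 0.0647 for Gnat1, 0.150 for Cnga1 and 0.254 for Gngt1, which did not pass although their heights did not overlap P0. At P21 against P0, 6 of the 8 were called higher, the same 5 and Gnat1, against 0.720% of promoters. The adjusted p from limma was 0.00254 for Sag and Pde6b, 0.00636 for Rcvrn, 0.0103 for Pde6g, 0.0104 for Pde6a and 0.0105 for Gnat1. It was 0.0584 for Cnga1 and 0.0636 for Gngt1. Of all promoters, 4 (0.0411%) were called lower at P14 and 11 (0.113%) at P21. The 8 genes, at 0 at P0, could not be among them. With quantile normalization the split of all promoters was 92 higher and 35 lower at P14 and 132 and 69 at P21. The medians over all promoters were -0.15 and -0.23 on the log2 scale at P14 and P21. No fold change is given, since all P0 heights were listed at 0. The calls rest on single libraries: at P14 there were 0 calls among the 8 without P0 replicate 1, without P14 replicate 1 or without P14 replicate 2, and 4 without P0 replicate 2. At P21 there were 0 without P21 replicate 1 and 4 without P0 replicate 1.

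H3K4me3 appeared at the same 8 starts. In P0 replicate 1 no peak was listed at any of the 9 starts, and in P0 replicate 2 only Sag had a peak, with a height of 3.10 that lay at the 0.176th percentile of the starts with a peak in that library. In all 6 later libraries the 8 genes had a peak, and Cngb1 had none. Of all 17479 starts, 41.2% had no H3K4me3 at P0 and 0.297% had none at P0 and a peak in all 4 P14 and P21 libraries. Both marks were gained in this way at 33 starts (0.189%). These were 7 of the 9 genes (all but Sag and Cngb1), 4 genes of a list of other rod phototransduction genes (Aipl1, Gnb5, Grk1 and Slc24a1) and 22 others. At Gnat1 this gain holds for the 2 kb window only. A Brg1 peak 2.87 kb downstream of its start overlapped an H3K4me3 peak in both P0 libraries and an H3K27Ac peak in 1. The Gnat1 H3K4me3 summits at P14 and P21 lay 2573 to 3462 bp downstream of the start, beyond that window.

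Rcvrn had the highest H3K4me3 at P14, at 44.8 and 42.5, and was at 73.2 and 22.7 at P21. Gngt1 was the lowest in P14 replicate 2, at 12.3 and 23.4 at P14 and at 41.1 and 17.9 at P21. Pde6a had the narrowest range as deposited, at 29.1 and 18.2 at P14 and at 23.9 and 23.4 at P21. Scaled between libraries, its heights ran from 14.7 to 38.3 (SD 11.1), and Cnga1 had the smallest SD (4.86). For the other 5 genes the P21 replicate 1 height as deposited was the highest (50.9 to 71.0). The 3 other libraries lay at 17.5 to 34.2. The median over all starts with a peak was also highest in P21 replicate 1, at 62.0 against 23.8 to 34.4. After scaling, P21 replicate 1 was the highest for Gnat1 alone among these 5 genes.

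**Figure D2:**
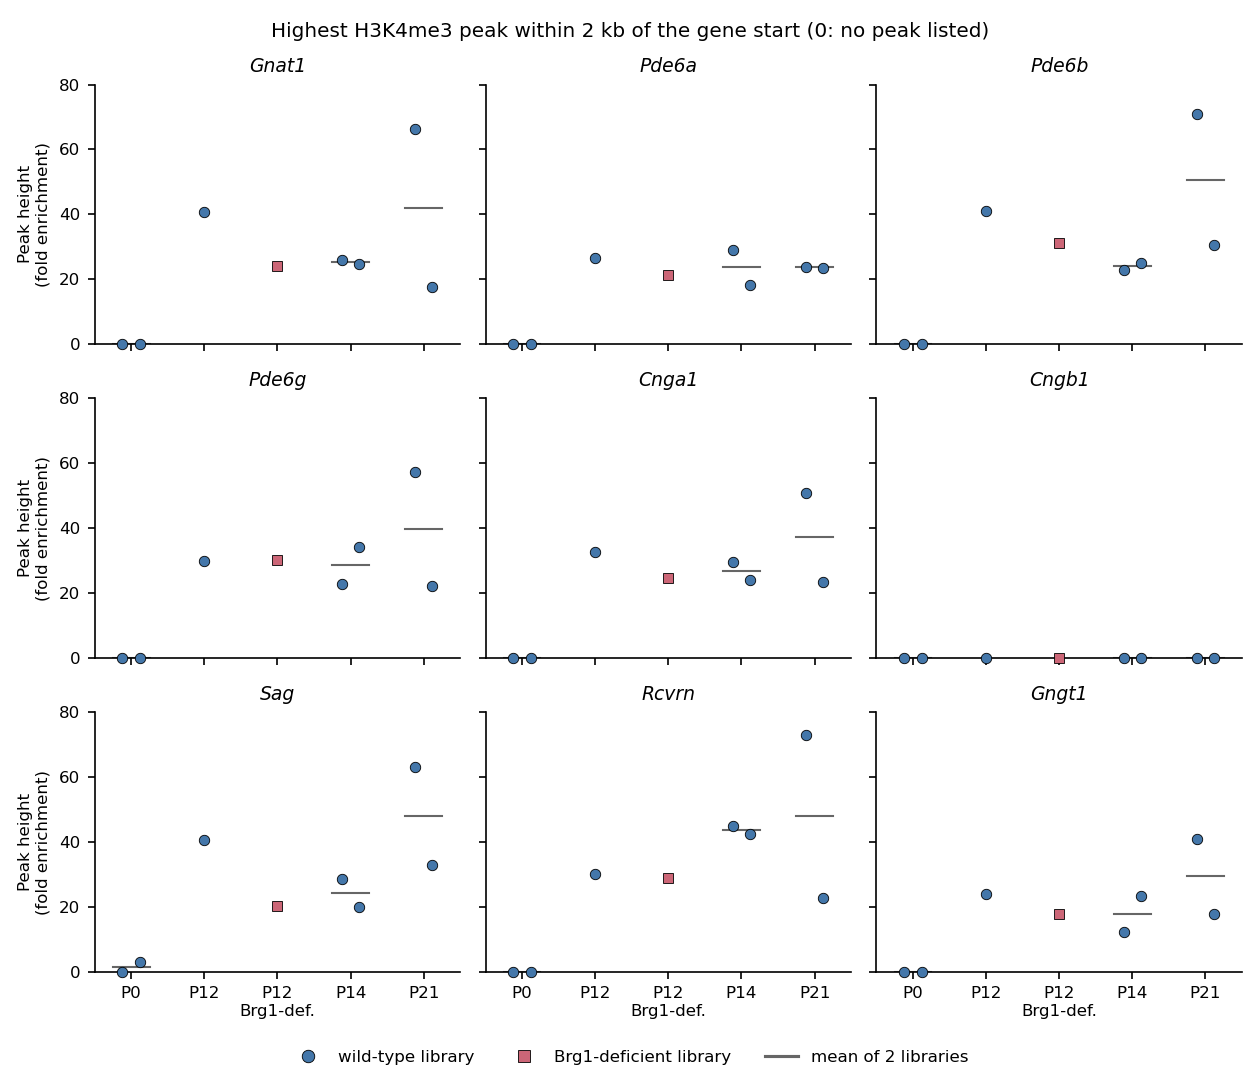
Height of the highest H3K4me3 peak within 2 kb of the start (fold enrichment, linear axis) for each gene, by stage and genotype. Each point is 1 library and bars are means of 2 libraries. The P0 points lie at 0 except 1 library of Sag at 3.10, and the later points lie between 12.3 and 73.2 except those of Cngb1, which lie at 0.

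In the limma fit over all 8 H3K4me3 libraries, all 8 genes with a peak were called higher at P14 and at P21, against 0.959% and 1.11% of 10322 promoters. They passed the filter through the later stages. The largest Benjamini-Hochberg adjusted p from limma among them was 0.00144 at P14 (Sag and Pde6a) and 0.00131 at P21 (Pde6a), and the smallest were 3.58e-05 for Rcvrn at P14 and 4.31e-05 for Pde6b at P21. Of all promoters, 406 (3.93%) were called lower at P14 and 841 (8.15%) at P21. The 8 genes, at 0 at P0 save 1 low peak of Sag, could hardly be among them. With quantile normalization 103 were higher and 124 lower at P14, and 140 and 191 at P21, against 99 and 115 higher with the median scaling, and the 8 calls held at both stages. Without P0 replicate 1, 1 of the 8 was called at P14 and 5 at P21, and without P0 replicate 2, 0 and 1 were called.

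The H3K4me3 peaks of these genes were wide and of middling height. Across the 4 P14 and P21 libraries, 7 of the 8 genes had a highest peak wider than the 90th percentile of all starts with a peak (2555 to 3289 bp), in every library. Sag was the exception, at 2429 to 2606 bp. The Gnat1 peak was 7780 to 9139 bp wide, more than the 5198 bp of the gene. That of Pde6b was 5408 to 12524 bp wide, that of Pde6a 5003 to 11009 bp and that of Rcvrn 5536 to 9551 bp, beside a gene of 8030 bp. The median width over all starts with a peak was 1514 to 1929 bp. By height the 8 genes lay at a median percentile of 28.6 to 47.6 among starts with a peak in these libraries. H3K27Ac stood differently, with a median percentile of 66.2 to 98.5 at P14 and P21. These ranks were not tested. In P21 replicate 1, the library with the fewest acetylated starts, the 8 genes lay at or above the 93.4th percentile, and in P14 replicate 2, with the most, Gngt1 lay at the 29.8th.

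Other genes of the pathway moved in the same direction in part. Of 13 other rod phototransduction genes, 11 had a start and 10 were tested. H3K27Ac was called higher at 2 of the 10 at P14 and at 4 at P21, and H3K4me3 at 6 at both stages, with 0 lower in each comparison and 0 lower at an unadjusted p under 0.05. In the P0 libraries 3 and 4 of the 11 starts had an H3K27Ac peak, and only such starts could be called lower for H3K27Ac. Grk1, the kinase that phosphorylates the visual pigment, was at 0 in both P0 libraries, at 19.1 and 19.6 at P14 and at 23.5 and 10.4 at P21 for H3K27Ac (adjusted p from limma 0.0403 and 0.0200). Aipl1, a chaperone of the phosphodiesterase, was at 0 at P0, at 14.1 and 20.4 at P14 and at 8.94 and 12.7 at P21 (0.0204 and 0.0122). Slc24a1, the rod cation exchanger, was called at P21 (0.0333), with 0 at P0 and 10.1 and 13.1 at P21. Gucy2e, a guanylate cyclase, was acetylated before maturation: it was at 3.60 and 5.32 at P0 and at 14.9 and 19.6 at P21, a log2 difference of 1.84 ± 0.32 (SE, adjusted p 0.0215). Gnb5, a G protein beta subunit that pairs with the RGS9 protein, was called for H3K4me3, at 0 at P0 and 19.1 and 23.6 at P14 (adjusted p from limma 0.000243). Grk1, Aipl1, Slc24a1 and Gnb5 had no peak at P0 and passed the filter only through the later stages, so that their adjusted p rests on that choice. Whether the calls on this list held without single libraries was not examined. Of 8 cone phototransduction genes 4 had a start, 1 was tested for H3K27Ac and 2 for H3K4me3, and limma called 0, with 0 at an unadjusted p under 0.05.

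The profiles most like the mean of the 8 genes over the 9 H3K27Ac libraries were those of Mybphl (Pearson r = 0.991), Olfr243 (0.991), Pdc (0.991), Fcer1g (0.989) and Pnkd (0.989), among 9722 promoters. Pdc, phosducin, which binds transducin beta and gamma subunits, belongs to the list of other rod genes. The 8 genes themselves lay between 0.964 (Pde6b) and 0.993 (Sag) and are part of the mean. The 9 points are single libraries, and the P0 libraries, at 0 for all 5 genes, set most of these correlations.

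At P12 the Brg1-deficient libraries carried both marks at the same 8 starts. For H3K27Ac, Gnat1 was at 19.0 in the wild-type library and at 7.98 and 12.9 in the Brg1-deficient libraries. Pde6a was at 15.1 and at 10.47 and 6.83, and Sag was at 17.6 and at 13.6 and 12.4. These are the genes whose heights as deposited were lower in both Brg1-deficient libraries. Pde6b was at 16.8 in wild-type and higher, at 20.2 and 18.3, in both Brg1-deficient libraries. Pde6g (17.1 against 21.3 and 14.9), Cnga1 (9.80 against 7.82 and 10.3), Rcvrn (12.9 against 9.41 and 14.9) and Gngt1 (7.23 against 6.06 and 9.32) were bracketed by the Brg1-deficient libraries.

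After scaling, 6 of the 8 genes lay below wild-type in both Brg1-deficient libraries, against 31.1% of the 8613 starts with a peak in all 3, and 62.0% of the 100 starts among them that gained H3K27Ac after P0. As deposited it was 3 of 8, against 11.9%. In limma, the log2 difference (Brg1-deficient minus wild-type) was -0.89 ± 0.54 (SE) for Gnat1, -0.80 ± 0.49 for Pde6a and -0.56 ± 0.49 for Sag, and ranged from -0.29 to -0.06 for the other 5. None passed: the Benjamini-Hochberg adjusted p from limma was 1 for all 8, the smallest unadjusted p was 0.125, and 0 of 9722 promoters were called (0.936% had an unadjusted p under 0.05). The differences of Pde6g, Pde6b and Gngt1 turned positive without scaling. The wild-type group is 1 library, assumed to vary like the other groups.

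**Figure D3:**
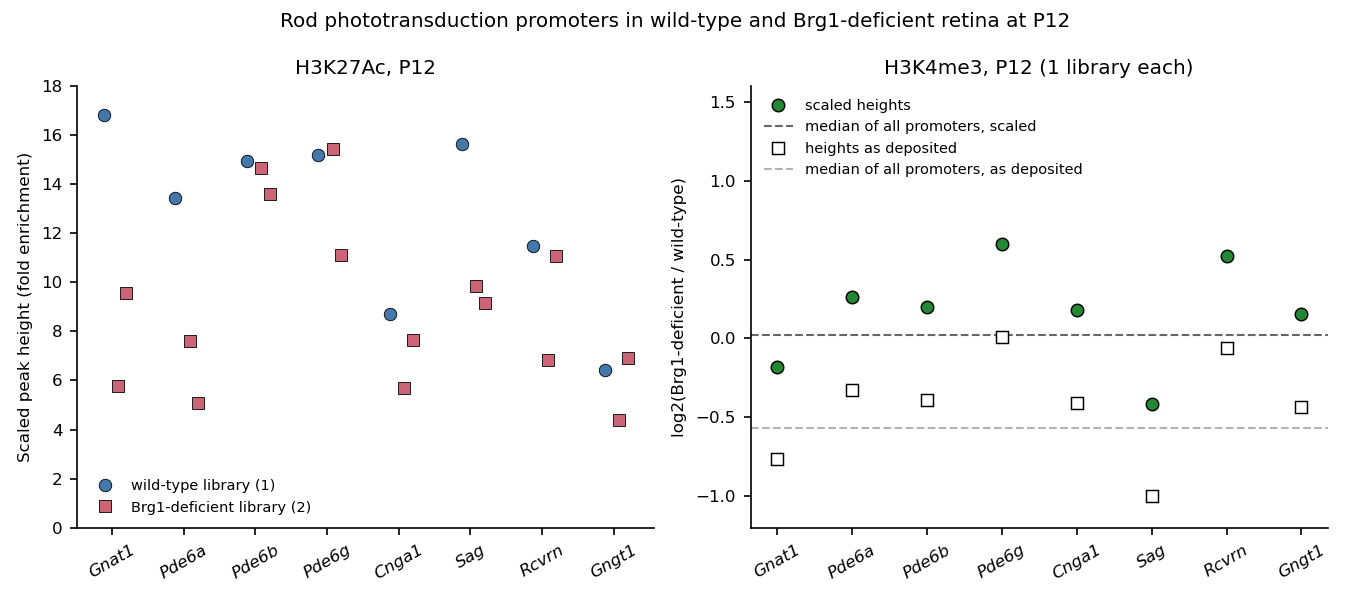
Left, scaled H3K27Ac heights of 8 genes at P12 in 1 wild-type library (circles) and 2 Brg1-deficient libraries (squares), on a linear axis from 0. Right, log2 ratio of the Brg1-deficient to the wild-type H3K4me3 height (1 library each), scaled (filled) and as deposited (open), with the medians over all promoters as dashed lines. The wild-type H3K27Ac point lies above both squares for 6 genes, and the H3K4me3 ratios lie on both sides of the median.

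For H3K4me3 at P12 there was 1 library per genotype and hence no test. Heights as deposited were lower in the Brg1-deficient library for 7 of the 8 genes, and for 89.7% of the 9943 starts with a peak in both. After scaling, 2 of the 8 were lower, against 48.1% of all starts and 34.1% of the 44 that gained H3K4me3. These were Sag, at 40.7 in wild-type and 20.3 in Brg1-deficient (scaled log2 difference -0.41), and Gnat1, at 40.6 and 23.9 (-0.18). At Gnat1 the summits lay apart, 3269 bp from the start in wild-type (a peak of 7783 bp) and 269 bp in Brg1-deficient (4150 bp). The Gnat1 heights are thus not those of the same site. Pde6g was at 29.98 and 30.22 (0.60), and Rcvrn at 30.2 and 29.0 (0.52). The scaled range of the 8, -0.41 to 0.60, lay within that between the 2 wild-type P14 libraries, -0.73 to 0.86. After scaling none of the 8 was lower by 2-fold or more, as were 2.25% of starts.

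A Brg1 peak at P0 was no more frequent near these 9 starts than near starts in general. One lay within 2 kb of the start of 4 of the 9, Gnat1, Pde6b, Pde6g and Cnga1, against 50.8% of all starts and 56.4% of the 101 starts that gained H3K27Ac. The highest peaks there were 5.51 for Gnat1, 4.48 for Pde6b, 3.94 for Cnga1 and 3.83 for Pde6g. These lay between the 29.4th and the 76.3rd percentile of all Brg1 peaks. Among starts with a Brg1 peak, they lay lower, between the 8.76th (Pde6g) and the 43.9th percentile (Gnat1). Pde6a, Sag, Rcvrn, Gngt1 and Cngb1 had none, and 4 of these 5 gained both marks or, in Sag, H3K27Ac and a higher H3K4me3 peak. There was 1 Brg1 library, so that the peaks have no replicate.

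In the gene and 20 kb each side, 8 of the 9 genes had a Brg1 peak, against 67.0% of all genes, and Gngt1 had none. The number was 16 for Gnat1, 4 for Pde6g, 3 for Sag, 2 each for Pde6b, Rcvrn and Cngb1, and 1 each for Pde6a and Cnga1. Of these, 3 of the 4 at Pde6g lay within 2 kb of starts of other genes (Nploc4, Ccdc137 and Oxld1, Arl16 and Hgs), and 2 of the 3 at Sag within 2 kb of that of Dgkd. The tallest of the 16 at Gnat1, at 12.5 and 11.9, lay 19.5 kb downstream and 18.7 kb upstream of its start, at sites acetylated in both P0 libraries. Of the 31 peaks, 16 overlapped no H3K27Ac peak at P0, and 10 of these 16 overlapped one in all 4 P14 and P21 libraries, against 4.74% of the 29512 Brg1 peaks without P0 H3K27Ac. Among the 10 are the peaks within 2 kb of the starts of Gnat1, Pde6b, Pde6g and Cnga1, and the Sag peak 2.395 kb upstream. Both Rcvrn peaks, in the acetylated region described below, are also among them. Those starts and that region are described here as gaining H3K27Ac after P0, so that this share largely restates those gains. Peaks of 1 gene share a locus and are not independent.

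Away from the starts, Rcvrn gained a long acetylated region. It lay 13.1 kb upstream of the start (chr11:67489818-67499720, mm9), had no H3K27Ac peak at P0 and was at 15.4 in wild-type P12, at 15.3 and 13.2 at P14, at 13.96 and 7.205 at P21, and at 14.8 and 16.1 in the Brg1-deficient P12 libraries. Adjusted p from limma was 0.0468 at P14 and 0.0256 at P21. The region entered the test through peaks of the later stages alone, and neither call held without either P0 library. Both Brg1 peaks of the Rcvrn window lay in it, at 4.19 and 3.14. An H3K4me3 peak was listed there in all 6 later libraries, at 7.24 to 23.95, and in neither P0 library. H3K27Ac peaks covered 0 kb of the 48.0 kb Rcvrn window in both P0 libraries and 15.5 to 27.1 kb in the P14 and P21 libraries.

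**Figure D4:**
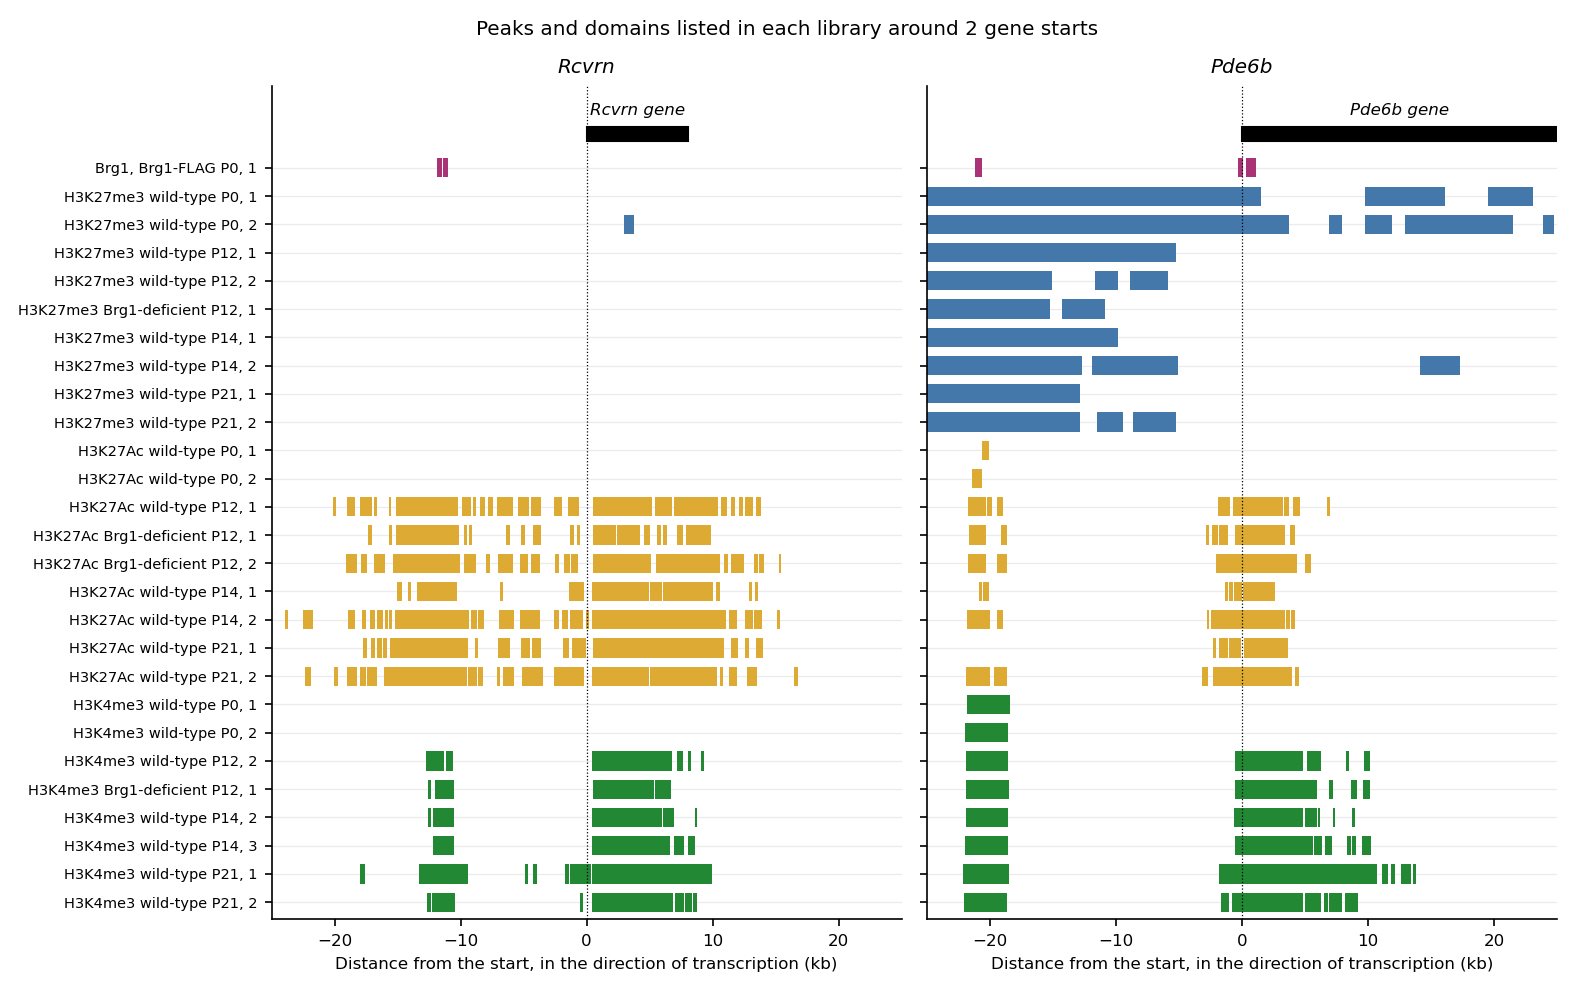
Peaks and domains listed in each library within 25 kb of the starts of Rcvrn and Pde6b, by distance from the start in the direction of transcription (kb). Each row is 1 library and the number after the stage is its replicate. At Rcvrn the marks cover the gene and a region 13.1 kb upstream, which holds the Brg1 peaks, and at Pde6b the H3K27me3 domain covers the start at P0 only.

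Of 87 H3K27Ac regions away from the starts, 4 (4.60%) were called higher at P14, near the 2.78% of all 41468 merged regions, and 12 (13.8%) at P21, against 7.97%. Of all merged regions, 2.41% were called lower at P14 and 3.19% at P21. Only 14 of the 87 had an H3K27Ac peak at P0, and the others, at 0, could not be called lower. That none of the 87 was called lower is thus largely fixed in advance. Gains with no P0 peak and a peak in all 4 later libraries made up 9 of the 87 (10.3%), against 6.03%. The called regions lay at 5 genes. All 12 were at 0 in both P0 libraries and passed the filter only through the later stages, as the promoters did, so that their adjusted p rests on that choice. At Gngt1, a region 17.5 kb upstream (chr6:3924355-3928602) was at 0 at P0, at 11.7 and 11.0 at P14, at 14.2 and 11.5 at P21, and at 10.9 and 11.0 in the Brg1-deficient libraries (adjusted p 0.0372 at P14 and 0.0193 at P21). At Sag, a region 22.4 kb upstream (chr1:89675147-89680688) was at 0 at P0 and between 6.10 and 8.78 at P14 and P21 (0.0468 and 0.0193). At Pde6a, a region 7.66 kb inside the gene (chr18:61387849-61389609) was at 0 at P0 and between 5.74 and 10.8 later (0.0493 and 0.0193). At Cnga1, a region inside the gene, 33.9 kb downstream of the start (chr5:72999564-73000710) was between 6.10 and 7.76 later and was called at P21 only (0.0195, and 0.0634 at P14). All 4 of these P14 calls, and all 12 at P21, were lost without either P0 library or with only the 6 wild-type libraries in the fit. No region of Gnat1, Pde6b, Pde6g or Cngb1 was called. H3K27Ac peaks in the gene and its flanks covered 0.978 and 2.38 kb at P0 and 13.1 to 31.9 kb at P14 and P21 for Sag, and 0 kb at P0 and 4.81 to 11.6 kb later for Cnga1.

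H3K27me3 domains lay near 3 of the 9 starts at P0 and near none in the 7 later libraries, where 20.3% to 28.3% of all starts had one. At Pde6b the domains of the P0 libraries were 33.6 and 34.4 kb long, ran from upstream across the start, and had scores at the 98.0th and 98.8th percentile of their libraries. Their edge lay 1.53 and 3.73 kb past the start at P0. In the later libraries the domain upstream of Pde6b ended 5.07 to 12.9 kb before the start, at 10.9 kb in the Brg1-deficient P12 library and at 5.27 and 5.87 kb in the wild-type P12 libraries. At Gnat1 the P0 domains were 3.40 and 3.60 kb long and covered the downstream part of the gene without reaching the start. Cnga1 had a domain of 6.20 kb in P0 replicate 2 only, upstream of the start. A domain in both P0 libraries was found at 19.3% of all starts and at 28.7% of those that gained H3K27Ac, and 1.57% of all starts had one in both P0 libraries and in none of the later ones, as Gnat1 and Pde6b did. The H3K27me3 antibody of the P12 libraries differed by label from that of the other stages. The Brg1 peaks at the starts of Pde6b and 1 of those at Gnat1 overlapped these domains in both P0 libraries.

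Cngb1 stood apart from the other 8 genes. The H3K4me3 peak nearest its start was 13.7 to 13.97 kb away in all 8 libraries and was already listed at P0 at 15.2 and 15.3. A peak of both marks that was absent at P0 and present in all later libraries lay 90.6 to 91.0 kb downstream of the start, past the end of the gene and the 20 kb flank. It stood at 13.2 to 40.0 for H3K4me3 and at 10.47 to 14.004 for H3K27Ac at P14 and P21. Within the gene and its flanks H3K27Ac peaks covered 0 to 4.70 kb of 107.5 kb at P14 and P21. The start was placed from its neighbours on the assumption that the local order is the same in both builds, which was not tested.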

How the data were processed

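The authors deposited a peak list for each H3K27Ac, H3K4me3 and Brg1 library (18 lists, each from that library alone), with the fold enrichment of each peak (a ratio, the height used here) and its −log10 p and −log10 q. For H3K27me3 the authors deposited domains with a whole-number score whose meaning was not given in the sources used here. Per the submitters' processing notes the build was mm9 and the tools included BWA 0.5.9-r26, MACS2 2.0.9 and SICER 1.1. Input libraries were not used here. Read depth is unknown.

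The members and gene lists were chosen with earlier results of these data known. All 9 members were described in every comparison, and of other lists at most 4 called genes with the largest change were named. GRCm38.p6 coding starts (RefSeq) were moved to mm9 by the local offset, over genes within 5 Mb, that put most starts within 1 kb of a P0 H3K4me3 peak (37.5% to 86.0% of them, 1.44 to 4.40 times the next best offset). Equally good offsets spanned up to 2300 bp. For 4 members with no RefSeq promoter entry the strand was set from general knowledge, and the highest H3K4me3 summit lay nearer that start than the other gene end in 13 of 16 cases, the exceptions being 3 libraries of Gnat1. Heights were scaled to the median over promoters with a peak in every library, and features with a peak in at least 2 libraries were tested with limma 3.58.1 (R 4.3.3, eBayes with a trend) on log2(height + the 5th percentile of heights), with Benjamini-Hochberg adjustment at 0.05. The fit was tested on simulated data, with changes placed only at features that had a peak in every library. None of the members' promoters was such a feature, so that test does not cover a start with no peak at P0. H3K27Ac peaks of all libraries were merged into regions. H3K4me3 at P12, Brg1 and H3K27me3 were described without a test. Python 3.11.15, numpy 2.4.6, pandas 2.3.3 and matplotlib 3.10.9 were used.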

Additional observations from a re-analysis of the deposited data

How the results depend on the processing

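Every one of the 8 tested genes had a positive difference from P0 for both marks under all alternatives run, but calls did not all hold. Within 2 kb the P0 heights were 0, save 1 of Sag for H3K4me3, so that the sign was nearly fixed in advance. It is no measure of robustness. For H3K27Ac the number of the 8 called was 5 at P14 and 6 at P21. It was 2 and 2 without scaling and 0 and 0 with promoters that had a peak in at least 1 library, and without a variance trend it was 0 at P14. For H3K4me3 it was 8 at both stages and 5 at both with a 5 kb window. Leaving out 1 library gave 0 to 4 (H3K27Ac P14), 0 to 8 (H3K27Ac P21), 0 to 8 (H3K4me3 P14) and 1 to 8 (H3K4me3 P21). For regions away from the starts the number called was 4 at P14 and 12 at P21. At P14 it was 0 with a peak in every library, 1 with a peak in at least 1 library, 0 with 6 wild-type libraries and 0 to 12 leaving out 1 library. At P21 it was 6 without scaling, 0 with a peak in every library, 7 with a peak in at least 1 library, 0 with 6 wild-type libraries and 0 to 9 leaving out 1 library, with 2 regions called lower without P21 replicate 2. The causes were not tested. No promoter of the 8 had a peak in every library, so that this filter gave no value for them.

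Over all promoters, calls at an adjusted p under 0.05 ranged over the other alternatives from 0 to 106 higher (42 as reported) and 0 to 366 lower (4) for H3K27Ac at P14, from 0 to 138 (70) and 0 to 451 (11) at P21, from 51 to 111 (99) and 115 to 431 (406) for H3K4me3 at P14, and from 62 to 209 (115) and 191 to 1314 (841) at P21. Leaving out 1 library gave 0 to 37 higher and 0 lower for H3K27Ac at P14, 0 to 46 and 1 to 119 for H3K4me3 at P14, and 6 to 87 and 16 to 554 at P21. For H3K27Ac at P21 it gave 0 and 0 without P21 replicate 1 and 328 higher and 1117 lower without P21 replicate 2, where lower calls outnumbered higher ones. For merged H3K27Ac regions they ranged from 0 to 2035 higher (1151) and 0 to 2103 lower (999) at P14, and from 0 to 5109 (3304) and 0 to 2665 (1324) at P21, and leaving out 1 library gave 0 to 3568 and 0 to 1064, and 0 to 3060 and 0 to 2633.

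Replicate numbers were shared, but whether they pair the libraries is unknown. Deviations of same-numbered H3K27Ac libraries were correlated at r = 0.02 (P0 and P14), 0.01 (P0 and P21) and 0.25 (P14 and P21), and H3K4me3 at 0.17 (P0 and P21). With the replicate number as a block the numbers called were 6 and 8 for H3K27Ac at P14 and P21, 8 for H3K4me3 at P21, and 0 and 21 for the regions at P14 and P21. For H3K4me3 at P14 and for the P12 comparisons no paired analysis was possible because the H3K4me3 libraries of P0 and P14 share only 1 number by their titles (2 and 3 at P14, as used here, while the file names carry 1 and 2) and the wild-type P12 group has 1 library.

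At P12, H3K27Ac differences turned positive without scaling for Pde6b (0.16), Pde6g (0.051) and Gngt1 (0.044), and leaving out 1 Brg1-deficient library gave -0.36 to 0.020 for Pde6g and -0.33 to 0.072 for Gngt1. None of the 8 was called under any alternative. The median H3K4me3 difference of the 8 at P12 was 0.19 scaled and -0.40 as deposited, beside 0.02 and -0.57 over all starts with a peak in both libraries. Brg1 peaks lay near 4 starts, near 1 with the 50% of peaks of highest −log10 q and near 2 with a 1 kb window. In the gene and its flanks 5 genes kept a peak with those strongest peaks. H3K27me3 domains lay near 2 starts in both P0 libraries and near 1 with a 1 kb window, and with a 5 kb window 2 genes had a domain after P0. The depth of the libraries is unknown, and an absent peak means only that none was listed.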
